A study of Mus musculus with 20 samples.

Results

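The response of miR146a knockout (KO) pancreas to cerulein was measured in 10 of the 20 labelled samples, 5 labelled cerulein and 5 labelled phosphate-buffered saline (PBS), chosen by their labelled genotype and treatment. All came from miR146a KO mice 6 to 8 weeks old. The mice received 7 intraperitoneal injections, 1 h apart, of 50 µg/kg cerulein or of 50 µl PBS, and pancreas was taken 1 h after the last injection. Wild-type (WT) littermates had the same treatments (5 PBS samples, and 4 cerulein samples with counts) and were used here for the shared estimate of spread and for comparison. The labels give no sex, litter, cage, library batch or knockout allele. They call the samples separate replicates without stating that each is 1 mouse, so p-values cover the spread between these samples.

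Cerulein is an analogue of cholecystokinin, the gut hormone that makes pancreatic acinar cells release digestive enzymes. In excess it blocks secretion, activates enzymes inside acinar cells and brings on acute pancreatitis, with death of acinar cells and entry of leukocytes. The microRNA miR-146a is induced by NF-kB and dampens the same pathway by repressing the signalling adaptors Traf6 and Irak1, so KO mice lack a known brake on inflammatory signalling.

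The labels do not state which bases the knockout removes. The sequences of the microRNA named in the KO label are given for reference. They are the mature arms from RefSeq on GRCm38.p6, 5′ to 3′, with the seed (bases 2 to 8) in capitals. Both lie on the minus strand, the 5p arm at chr11:43374435-43374456 and the 3p arm at chr11:43374399-43374420.
mmu-miR-146a-5p: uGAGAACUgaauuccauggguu
mmu-miR-146a-3p: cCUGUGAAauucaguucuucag

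The authors' table has no gene names beside its counts, so a transcript is called here by its row number, starting from 1 below the header. At most 2 rows that rose and 2 that fell are numbered, and the others are described by level and size of change. The naming rule took called rows, at 5 CPM or more in 1 group's mean, whose KO groups did not overlap. That the groups lie apart in these rows is thus no separate result. The loss of miR146a in the KO mice, pancreas markers, and markers of acinar, immune or other cells were not analysed here for this reason. A row may share reads with a paralog or an overlapping gene, since how reads were assigned to genes is not stated in the labels. In whole tissue, fewer cells of a type and less RNA per cell cannot be told apart.

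In KO pancreas, cerulein raised 214 rows (1.35% of the 15831 tested) and lowered 83 (0.524%), at an adjusted p under 0.05 in the quasi-likelihood test of edgeR. With another scaling (relative log expression), the split was 179 higher and 114 lower. The larger number of rises was not seen with DESeq2 (436 higher, 436 lower) or limma-voom (520 higher, 526 lower). It was seen with limma-voom and library weights (839 higher, 683 lower). The rises had a median log2 fold change of 1.88 (interquartile range 1.43 to 2.76) with a median SE of 0.37. The falls had a median of -1.84 (interquartile range -2.77 to -1.47) with a median SE of 0.41. The median of all tested rows was 0.06. By size, 90 rises and 34 falls exceeded 4-fold, and 32 rises and 9 falls exceeded 16-fold. Large fitted changes were mostly not called: of the 799 tested rows more than 4-fold higher, 11.3% were, and of the 534 more than 4-fold lower, 6.37%.

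**Figure D1:**
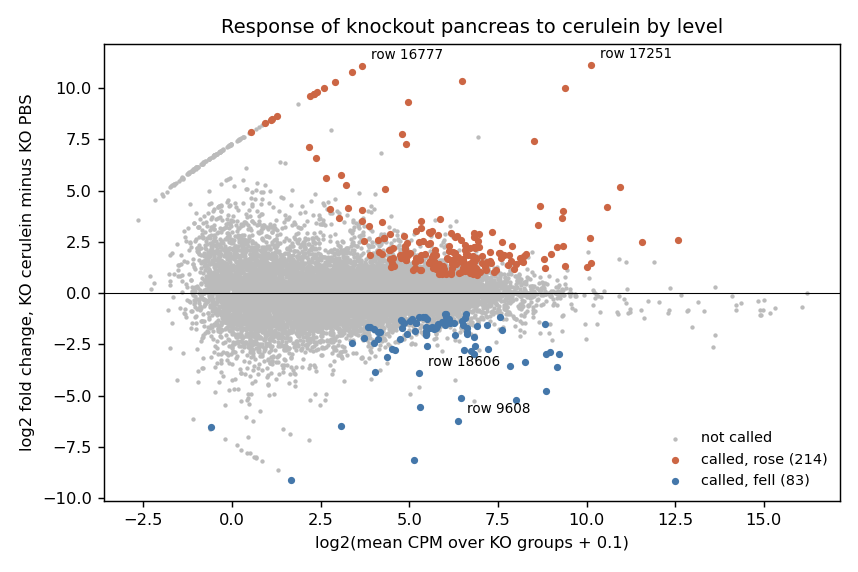
Each point is 1 of the 15831 tested rows; the horizontal axis is the log2 of its mean level over the KO groups plus 0.1, in CPM (counts per 1000000 of the scaled library size), and the vertical axis its log2 fold change, KO cerulein minus KO PBS. The 214 called rises (orange) and 83 called falls (blue) lie mostly in rows of middle and high level; the straight diagonal rows of points at the left hold rows with no counts in all libraries of a group, whose fitted fold depends on the prior count.

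Rows of higher level were called more often. Of the rows with a mean of 100 to 1000 CPM over the KO libraries, 67 of 939 rose (7.14%) and 18 fell (1.92%). Of those at 10 to 100 CPM, 120 of 8013 rose (1.5%) and 62 fell (0.774%), which makes 56.1% of all rises and 74.7% of all falls. At 1 to 10 CPM, 19 of 5686 rose (0.334%) and 2 fell (0.0352%). The median SD of a row's log2 CPM over the 5 PBS libraries was 1.57 under 1 CPM, 2.19 at 1 to 10, 0.699 at 10 to 100, 0.507 at 100 to 1000 and 1.35 from 1000 CPM up. It was above the median over the 5 cerulein libraries in every class (1.43, 0.929, 0.422, 0.349 and 0.847). Among PBS replicates 3, 4 and 5 alone, without the shallow PBS replicates 1 and 2, the median at 1 to 10 CPM was 0.983. The median SE of the fitted log2 fold change was 1.72, 1.15, 0.412, 0.304 and 0.756 in the same classes, from lowest to highest level. The part of spread in the share called was not tested.

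Among the 63 most abundant rows, with a mean of at least 1000 CPM, 8 rose (12.7%) and 0 fell with edgeR. In that class 9 fell at an unadjusted p under 0.05, and DESeq2 and limma-voom each called 6 falls. The 8 rises had a median log2 fold change of 2.63, from 1.27 to 11.13, and reached mean levels of 1471 to 10468 CPM after cerulein. The corresponding rise was also called in WT for all 8 rows. In the fit of the WT libraries alone, 524 of 13430 tested rows were called as rises. That fit had its own filter and spread estimates and covers rows of all levels. The share among rows of this level in WT is not given here. Row 17251, described next, is among the 8.

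Row 17251 had the largest rise. Its level was 0, 0, 0, 1.32 and 2.03 CPM in PBS replicates 1 to 5, and 1346, 1938, 4100.2, 1273 and 2578 CPM in cerulein replicates 1 to 5. The naming rule required all 5 cerulein libraries to lie above all 5 PBS libraries. Cerulein replicates 1 and 4 were the lowest of their group. The mean rose from 0.670 ± 0.951 CPM (SD, n = 5), resting on 38 counts in all, to 2247 ± 1162 CPM (SD, n = 5). The log2 fold change was 11.13 ± 1.12 (SE), with an adjusted p of 5.92e-06 by edgeR. In WT the same row was at 1.17 ± 2.61 CPM (SD, n = 5) without and 2358 ± 762 CPM (SD, n = 4) with cerulein. The log2 response in KO minus that in WT was -0.90 ± 1.39 (SE) and did not pass (adjusted p of 0.923 by edgeR).

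Row 16777 had 0 counts in all 5 PBS libraries, against 12.0, 27.2, 44.1, 10.1 and 31.6 CPM in cerulein replicates 1 to 5. Replicates 1 and 4 were again the lowest, with a mean of 11.1 CPM against 34.3 CPM in the other 3. The mean was 25.02 ± 14.2 CPM (SD, n = 5; edgeR adjusted p = 0.000113). The 1934 counts pooled over the cerulein libraries gave 18.0 CPM, which was at least 189-fold higher than a floor of 3 counts over the PBS group, and at least 79.6-fold higher without PBS replicate 4, the deepest. Its place next after row 17251 rests on a fitted fold that depends on the prior count. In WT it also had 0 counts in 5 PBS libraries and reached 39.0 ± 17.3 CPM (SD, n = 4) with cerulein.

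Row 9608 had the largest fall by the naming rule. Its level was 7.33, 54.9, 221, 383 and 147 CPM in PBS replicates 1 to 5, and 1.69, 4.41, 3.43, 0 and 1.82 CPM in cerulein replicates 1 to 5. The groups did not overlap, as the naming rule requires. The shallow PBS replicates 1 and 2 lay lowest in their group, at a mean of 31.1 CPM against 250.2 CPM in replicates 3 to 5. Group means were 163 ± 148 CPM without and 2.27 ± 1.70 CPM with cerulein (SD, n = 5 each), and the log2 fold change was -6.22 ± 1.21 (SE; adjusted p of 0.00691 by edgeR). It was -6.84 without PBS replicates 1 and 2, -5.62 without PBS replicate 4 and -8.38 with limma-voom; -8.38 and -5.62 were the extremes of the alternatives run. In WT, row 9608 had means of 72.5 ± 104 CPM (SD, n = 5) and 3.02 ± 1.74 CPM (SD, n = 4), with a log2 fold change of -4.65 ± 1.26 (SE; adjusted p of 0.0309 by edgeR).

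Row 18606 fell in the same libraries. It was at 17.1, 14.3, 51.9, 149 and 127 CPM in PBS replicates 1 to 5 and at 5.84, 5.35, 2.64, 2.71 and 7.84 CPM in cerulein replicates 1 to 5. Here too the naming rule required ranges that do not overlap. The shallow PBS libraries were again the lowest, so the gap between the groups is narrowest against them. The means were 71.9 ± 62.7 and 4.88 ± 2.21 CPM (SD, n = 5 each). The log2 fold change was -3.91 ± 0.79 (SE; adjusted p of 0.00974 by edgeR), and -4.50 without PBS replicates 1 and 2. Without cerulein replicates 1 and 4 the adjusted p of edgeR for row 18606 was 0.0491. The difference from the WT response did not pass for row 9608 (edgeR adjusted p = 0.838) or row 18606 (edgeR adjusted p = 0.851).

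**Figure D2:**
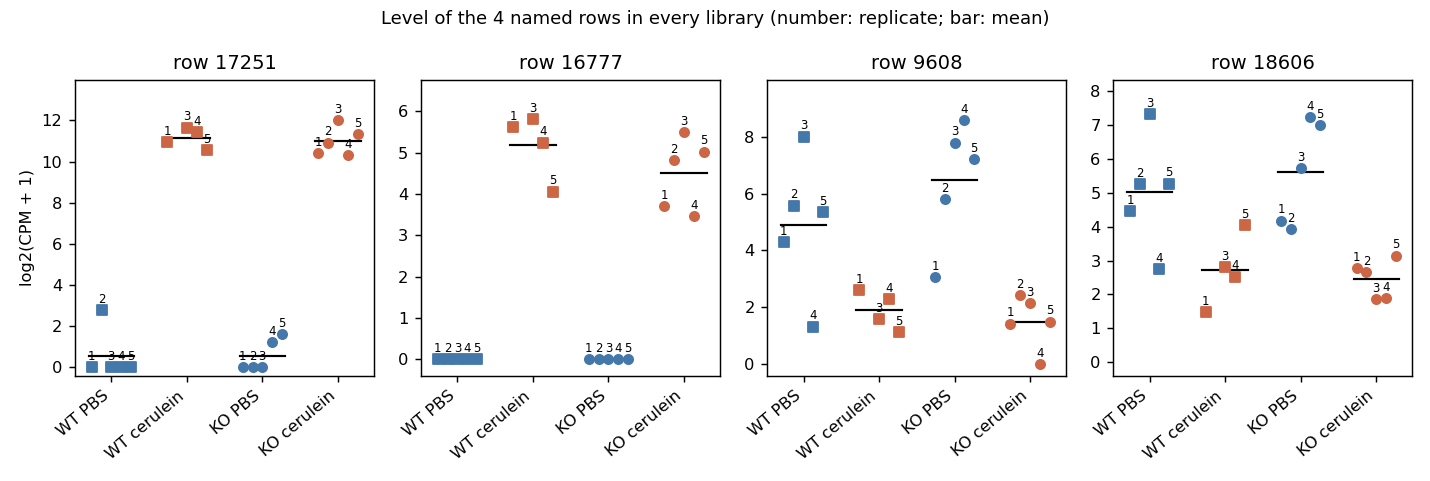
Level of the 4 named rows in each library as log2(CPM + 1), by genotype and treatment, with the replicate number at each point and a bar at the group mean (blue PBS, orange cerulein, squares WT, circles KO). In KO, cerulein replicates 1 and 4 are the lowest of their group for rows 17251 and 16777, and PBS replicates 1 and 2 are the lowest of theirs for rows 9608 and 18606.

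The 10 largest changes in each direction by the naming rule include the 2 rows named above for that direction. The 10 largest rises that met the naming rule had log2 fold changes of 9.69 to 11.13, and 7 of them had 0 counts in all 5 PBS libraries. Their mean level after cerulein ran from 9.68 to 2247 CPM, and 8 of the 10 were called as rises in WT as well. The 10 largest falls that met the naming rule ran from -6.22 to -2.44, and 7 of these 10 were called as falls in WT. Their mean levels were 26.8 to 1068 CPM after PBS and 2.18 to 105 CPM after cerulein. A row at 0 in all cerulein libraries meets the rule only with counts in every PBS library. The rule thus left out larger called falls. The 9 called falls over 16-fold ran from -9.109 to -4.775, and 2 of them had 0 counts in all cerulein libraries. For comparison, the fit of the WT libraries alone called 524 of 13430 tested rows as rises and 206 as falls, with its own filter and spread estimates. Of the 57126 rows of the table, 51 had 0 counts in every KO PBS library and at least 1 in every KO cerulein library. The opposite was seen in 0 rows. Among the 15831 tested rows, 23 had this pattern, and 13 of them were called. The PBS libraries held 52573084 counts together and the cerulein libraries 97437428. Depth thus differed between the groups in the direction of the first number, and the 51 rows had a median of 92 counts over the 5 cerulein libraries. The part of depth in these numbers was not tested.

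Libraries of the KO treatments did not overlap for 723 rows that were higher (4.57% of those tested) and 243 that were lower after cerulein (1.53%). Of the called rows, 190 of the 214 rises and 50 of the 83 falls were among them. A gap of more than 2-fold between the nearest libraries of the groups was left for 47 rises and 7 falls. Which library came nearest to the other group was uneven. Cerulein replicates 1 and 4 held the lowest cerulein value in 182 of the 214 rises (85.0%), compared with 34.2% of all tested rows. PBS replicates 1 and 2 held the lowest PBS value in 65 of the 83 falls (78.3%), compared with 70.3% of all tested rows. Of the tested rows, 4896 had 0 counts in PBS replicate 1, 3674 in PBS replicate 2 and 2245 in PBS replicate 3. Ties went to the lower replicate number, so rows at 0 in several PBS libraries can only add to replicates 1 and 2. The part of ties in the 70.3% was not tested. For falls, cerulein replicates 1 and 4 held the highest cerulein value in 34.9%, compared with 43.8% of all tested rows. PBS replicates 1 and 2 held the highest PBS value in 47.7% of the rises and 41.5% of all tested rows.

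Totals in KO ran from 806076 to 36347215 counts, with PBS replicates 1 and 2 at 806076 and 1707961. The mean Spearman rho of log2 CPM across tested rows, which shares depth and library within it, was 0.716 to 0.850 between a PBS library and its own group and 0.757 to 0.861 between a PBS library and the cerulein group; 4 of the 5 were nearer to the cerulein group. This rests on PBS replicate 1: without it, PBS replicates 2 to 5 lay at 0.822 to 0.884 with their own group, each nearer to it than to the cerulein group (0.796 to 0.861). Cerulein libraries lay at 0.887 to 0.902 with their own group and 0.805 to 0.831 with the PBS group. Cerulein replicates 1 and 4 reached 0.972 with each other and 0.851 to 0.870 with the other 3. In a principal component analysis of the 10 libraries, the first component (32.8% of the variance) placed PBS replicate 1 at -271, PBS replicate 2 at -62.8, and the other 8 between 20.6 and 61.0. The second (19.6%) placed PBS replicates 2 to 5 between -171 and -23.3 and the cerulein libraries between 33.4 and 75.1, with PBS replicate 1 at 44.0 among the latter. Library weights estimated by limma, where a higher weight means less unexplained variation, were lowest for cerulein replicate 4 (0.552), PBS replicate 1 (0.624) and cerulein replicate 1 (0.682), and highest for PBS replicate 5 (2.09).

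The same libraries differed in composition. The 10 most abundant rows of each library held 19.2%, 35.8%, 40.2%, 48.7% and 41.7% of the counts in PBS replicates 1 to 5, and 20.9%, 35.7%, 38.6%, 18.6% and 34.4% in cerulein replicates 1 to 5. PBS replicate 1 and cerulein replicates 1 and 4 thus had about the same low share. It took 449, 376 and 430 rows to hold 50% of the counts in these 3 libraries, and 11 to 27 rows in the other 7. The group means of the top 10 share were 37.1% ± 11.1 after PBS and 29.7% ± 9.21 after cerulein (SD, n = 5 each; exact two-sided permutation p = 0.230, adjusted p = 0.345 over 3 such tests). Without PBS replicates 1 and 2 the difference was -13.9 percentage points (exact permutation p = 0.0357, the smallest that 5 against 3 allows). Without cerulein replicates 1 and 4 it was -0.88 points (exact permutation p = 0.786), and without all 4 libraries -7.30 points, so its size rests on which libraries are kept.

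Thinned by calculation to 806076 counts, 11388, 12343, 13623, 13424 and 14235 rows were expected with at least 1 count in PBS replicates 1 to 5, and 16665, 14414, 13631, 16001 and 13665 in cerulein replicates 1 to 5. The groups overlapped, and the extremes were PBS replicate 1 at the bottom and cerulein replicates 1 and 4 at the top. The difference of 1873 rows had an exact two-sided permutation p of 0.0397 and did not pass after adjustment over the 3 tests (p = 0.119). It was 143 rows without PBS replicates 1 and 2 and cerulein replicates 1 and 4, where 3 against 3 cannot go below an exact permutation p of 0.1.

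In most of these libraries the number of rows per count had more than 1 peak. In PBS replicate 1, 309 rows held 1 count, 219 held 2 and 335 held 7. A second peak near 6 to 8 counts was also seen in PBS replicates 2, 3 and 5 and in cerulein replicates 2 and 3. In cerulein replicate 4 the number fell from 619 rows at 1 count to 279 at 2 and 144 at 5. Cerulein replicate 1 held 777 rows at 1 count, 582 at 2, 638 at 4 and 554 at 5, with its second peak at 4. The bound given for row 16777 takes each count as 1 independent molecule, which was not tested.

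**Figure D3:**
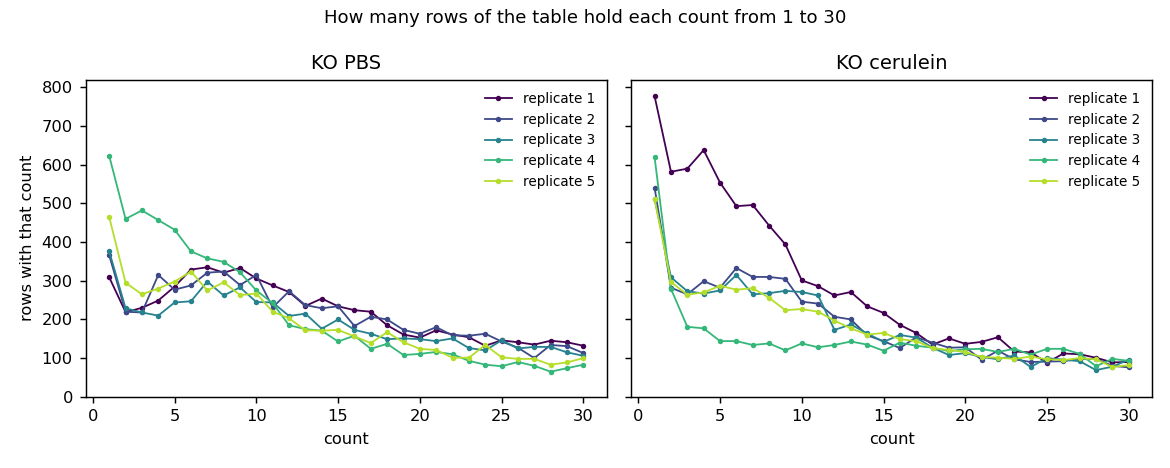
Number of rows of the table (vertical axis) that hold each count from 1 to 30 (horizontal axis) in the 5 KO PBS and 5 KO cerulein libraries, 1 line per library. Most lines have a second rise near 5 to 10 counts, such as the 335 rows at 7 counts in PBS replicate 1, while cerulein replicate 4 falls early and then stays flat.

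Leaving out the libraries in question changed both the number of calls and the share of rises among them, which was 72.1% with all libraries, 54.6% without PBS replicates 1 and 2 and 84.3% without cerulein replicates 1 and 4. Without PBS replicates 1 and 2, 527 rows were called, 288 higher and 239 lower. These included 245 of the 297 rows called with all libraries; 282 were added and 52 lost, 46 of the lost ones being rises. Without cerulein replicates 1 and 4, 344 rows were called, 290 higher and 54 lower, with 226 shared, 118 added and 71 lost. Here most of the lost rows (51) were falls. Without all 4, 487 rows were called, 341 higher and 146 lower, and 242 of the 297 were shared. Of the rows shared with each of these fits, 0 changed sign. The libraries kept are the same as in the full fit, so this is no separate support.

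Single libraries also decided the count. It was 539 without PBS replicate 1, 193 without PBS replicate 3, 144 without cerulein replicate 3 and 168 without cerulein replicate 5. A core of 134 rows, 103 rises and 31 falls, was called with all libraries and in each of the 10 fits without 1 KO library. In the 3 fits without the pairs of libraries above as well, 118 rows remained, 99 rises and 19 falls. By tool, the count was 297 with edgeR, 872 with DESeq2 and 1046 with limma-voom, and 278 rows were called by all 3 and by limma-voom with library weights.

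**Figure D4:**
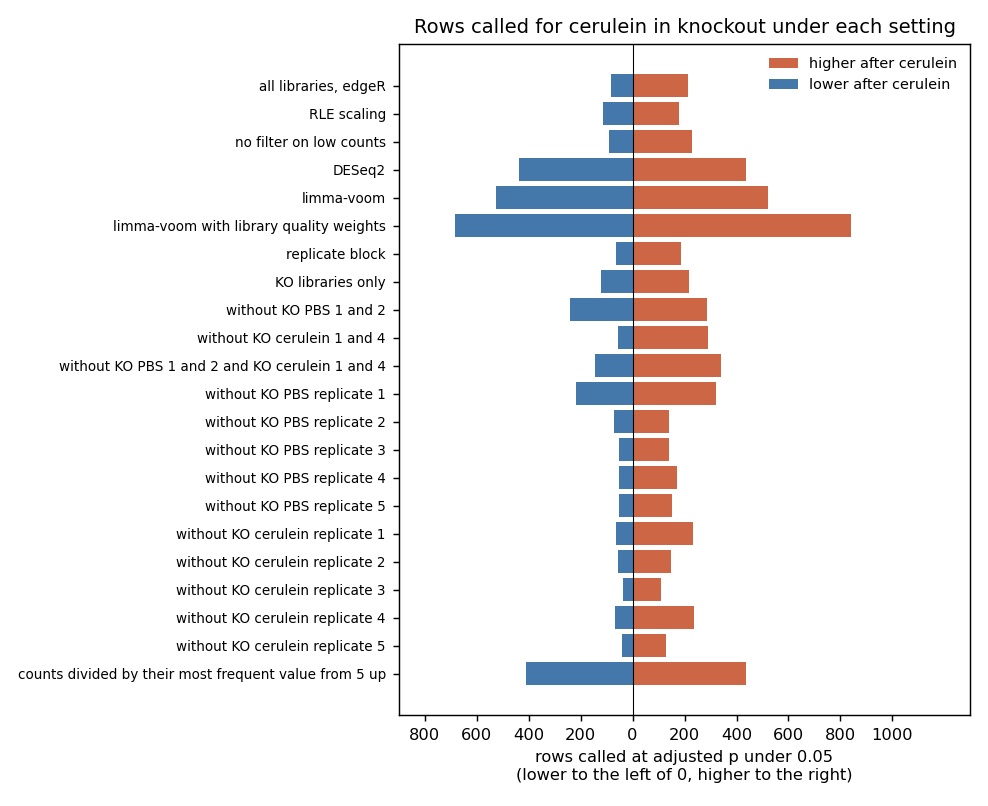
Number of rows called for cerulein in KO under each setting, with rises to the right of 0 and falls to the left. The bars range from 144 rows without KO cerulein replicate 3 to 1522 with limma-voom and library weights; falls are most reduced relative to rises without KO cerulein replicates 1 and 4 (54 against 290).

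To ask whether the KO mice changed the transcripts that changed in WT, the rows called in a fit of the 9 WT libraries alone were read in the KO libraries, which share none of those samples. Of 524 rows that rose in WT, 510 were higher and 14 lower in KO, and 152 (29.0%) were called as rises, compared with 8455 higher and 1.35% called as rises among all 15831 tested rows. These calls are not fully separate from WT, because 1 model gave both genotypes their spread estimates. Their median log2 fold change was 1.17 in KO and 1.92 in WT, where they were chosen. Of 206 rows that fell in WT, 153 were lower and 53 higher in KO, and 28 (13.6%) were called as falls, compared with 7376 lower and 0.524% called as falls among all tested rows. Their medians were -0.43 in KO and -1.97 in WT. In the other direction, 208 of the 214 KO rises and 82 of the 83 KO falls had the same sign in WT, with 166 and 36 of them called there. For comparison, the fit of the WT libraries alone called 524 of its 13430 tested rows as rises and 206 as falls, with its own filter and spread estimates. The share of all tested rows with the same sign in both genotypes is not given here.

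Library by library, the WT rows split the KO cerulein group. Relative to the mean of the KO PBS libraries, the median log2 level of the 524 WT rises was 0.77, 1.49, 1.89, 0.72 and 1.58 in cerulein replicates 1 to 5. That of the 206 WT falls was 0.08, -0.76, -1.30, 0.15 and -1.22. Replicates 2, 3 and 5 thus showed both sides of the WT response, and replicates 1 and 4 showed a smaller rise and no lower level of the WT falls. The median of all tested rows was itself 0.47 and 0.44 in replicates 1 and 4, and 0.19 to 0.26 in the other 3. Taken relative to that median, the WT rises stood at 0.30 and 0.29 in replicates 1 and 4 against 1.23 to 1.68 in the other 3, and the WT falls at -0.39 and -0.29 against -1.50 to -1.03. On this relative scale KO PBS replicate 1 reached 0.40 for the WT rises, above cerulein replicates 1 and 4, and the other PBS libraries lay between -0.25 and 0.02. For the WT falls, KO PBS replicate 4 lay at -0.34, between cerulein replicates 1 and 4, and the other PBS libraries between 0.02 and 0.19. The low share of counts in the 10 most abundant rows, given above, is common to KO PBS replicate 1 and cerulein replicates 1 and 4. Its part in these values was not tested.

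**Figure D5:**
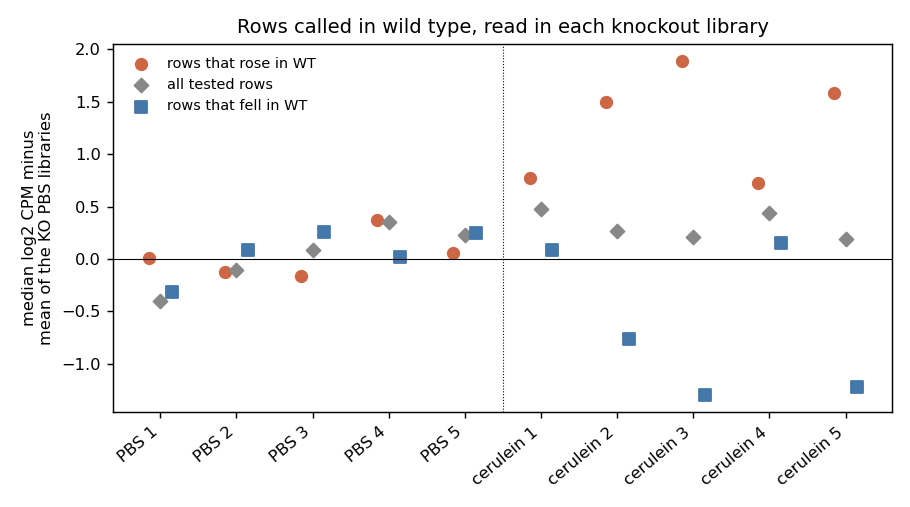
Median log2 CPM, relative to the mean of the 5 KO PBS libraries, of the 524 rows that rose in WT (orange), the 206 that fell in WT (blue) and all 15831 tested rows (grey) in each KO library. Cerulein replicates 2, 3 and 5 have the WT rises at 1.49 to 1.89 and the WT falls at -1.30 to -0.76, while replicates 1 and 4 have them at 0.72 to 0.77 and 0.08 to 0.15.

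Tested directly, the KO response differed from the WT response in 1 row (0.00632% of those tested; edgeR adjusted p = 9.14e-05), row 43726, which was singled out after its values were seen. It lay at 284, 100.2, 56.5, 62.4 and 83.9 CPM in KO PBS replicates 1 to 5 and at 100.1, 63.7, 178, 89.1 and 85.4 CPM in KO cerulein replicates 1 to 5, and the groups overlapped (log2 fold change -0.18 ± 0.41, SE; adjusted p of 0.910 by edgeR). Its mean after PBS was 117 CPM in KO and 2.50 CPM in WT, and after cerulein 103 CPM in KO and 152 CPM in WT. The genotypes thus lay furthest apart without cerulein. None of the 297 rows called in KO passed this test with edgeR: 0 had an adjusted p under 0.05 and 30 of the rises and 9 of the falls had an unadjusted p under 0.05 (9.2% of all tested rows had). Over all tested rows DESeq2 called 104, row 43726 among them. The 1 row called by limma-voom was a different one, and row 43726 had an adjusted p of 0.073 by limma-voom and 0.115 by limma-voom with library weights (log2 differences of -5.62 and -5.38). Apart from row 43726, edgeR thus showed no row called in only 1 genotype to differ between them.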

How the data were processed

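Pancreas RNA was sequenced from stranded polyA libraries in pairs of 98 bases, per the labels' protocols. The authors deposited raw gene counts as 57126 rows by 20 library columns, matched to samples by library name. The submitters' processing notes name fastp, STAR and GRCm39. How reads were counted, on which annotation and with what use of strand is not given in the sources used here. WT cerulein replicate 2 held 0 in every row and was left out.

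For the tests (edgeR 4.0.16 in R 4.3.3), rows passed filterByExpr (minimum count 10, minimum total 15), TMM scaled the libraries, and the quasi-likelihood model had 4 group means over 19 libraries, with Benjamini-Hochberg adjustment over all 15831 rows and a threshold of 0.05. SE is the absolute log2 fold change over the square root of F. CPM uses the scaled library sizes, and log2 CPM a prior count of 2. Bounds use a floor of 3 counts over a group, for counting error only. Other tools were DESeq2 1.42.0 and limma 3.58.1. Composition was compared by exact permutation tests in scipy 1.17.1. Thinned row numbers are hypergeometric expectations.

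Named rows were those called, at 5 CPM or more in 1 group's mean and with KO groups apart, that had the 2 largest and 2 most negative log2 fold changes. Members and rules were chosen with earlier results of these data known. Replicate numbers were not used as pairs. Alternatives were other scaling, filter, tools, a replicate block, KO libraries only, and leaving out libraries.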

Additional observations from a re-analysis of the deposited data

Results flagged for a closer look

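Across 30 sets of group values, 6 held a library far outside the others, by the size of its gap to the nearest value. No number expected by chance is given. The sets shared libraries, most came from rows picked for large changes, and some were 0 throughout. The total of KO PBS replicate 4 was 36347215 counts, and the other PBS totals in KO ran from 806076 to 9215620. In KO PBS replicate 1, 449 rows held 50% of the counts, against 11 to 25 in the other 4. Row 43726 was at 284 CPM in KO PBS replicate 1, against 56.5 to 100 CPM in the others. In the WT controls used for comparison, WT PBS replicate 3 was high for row 9608, at 256 CPM against 1.5 to 46.7, and for row 18606, at 159 CPM against 5.76 to 37.8. WT PBS replicate 2 had 5.83 CPM of row 17251, from 9 counts, while the other 4 were at 0.

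The response to cerulein of row 43726 in KO minus that in WT was -6.19 ± 0.67 (log2, SE; adjusted p of 9.14e-05 by edgeR). Its WT means were 2.50 ± 1.31 CPM (SD, n = 5) with PBS and 152 ± 54.6 CPM (SD, n = 4) with cerulein. Its KO means were 117 ± 94.9 and 103 ± 43.8 CPM (SD, n = 5 each).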

How the results depend on the processing

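The log2 fold changes of the 4 named rows kept their direction and an adjusted p under 0.05 in all 84 alternatives run, 21 for each row. The number of rows called in KO (297) was 872 with DESeq2, 1046 with limma-voom, 1522 with limma-voom and library weights, 527 without KO PBS replicates 1 and 2, 487 without these and KO cerulein replicates 1 and 4, and 144 to 539 without each KO library in turn. Dividing each library by the commonest of its counts of 5 or more, an alternative chosen after seeing the data, gave 845 of 10476 rows. The interaction count (1) was 13 without a filter, 104 with DESeq2, 2 with library weights, 3 without KO PBS replicates 1 and 2, and 1 to 4 without each library. Row 43726 was among the calls in each of these except with library weights (adjusted p of 0.115), and it was also not called by limma-voom (0.073), whose 1 call was another row. The number of rows whose KO groups do not overlap (966 in both directions) was 3085 without KO PBS replicates 1 and 2, 2106 without KO cerulein replicates 1 and 4, 4956 without all 4, and 1085 to 1881 without each library, where fewer libraries must be apart. The difference in rows detected (1873) was 1115, 901 and 143 without the same sets, 3858 without thinning, and 1425 to 2184 without each library. The top 10 share difference was -13.9 points without KO PBS replicates 1 and 2, and -12.0 to -4.58 without each library. The difference in rows holding 50% of counts (72.6) was 162 without KO PBS replicates 1 and 2, reversed to -79.0 without KO cerulein replicates 1 and 4, and was 9 to 159 without each library. The cause of these shifts was not tested.

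With the replicate block, 250 rows were called in KO and 1 in the interaction. Same-numbered KO libraries correlated over 0.1 in 2 of 5 pairs, and the deviations of 0 of 5 PBS libraries correlated best with their own number, so the numbers were not taken as pairs. Depth was lowest in KO PBS replicates 1 and 2, where 4896 and 3674 tested rows had 0 counts. At equal depth PBS replicate 1 still had the fewest rows detected, 11388 against 12343 to 14235 in the other PBS libraries.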
